A study of Mus musculus with 2 samples.

Results

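The calcineurin, NFAT and osteoclast fusion genes examined here are 10 genes, Nfatc1, Nfatc2, Nfatc3, Nfat5, Ppp3ca, Ppp3cb, Ppp3r1, Rcan1, Acp5 and Dcstamp, of 18193 genes read by at least 1 probe set that the platform annotation assigns to a single gene. They were chosen by symbol, and every probe set assigned to exactly 1 of them was taken, 33 in all. Bone-marrow-derived macrophages of C57BL6 mice, cultured in the presence of M-CSF, the macrophage growth factor, were treated with lipopolysaccharide (LPS), a cell wall component of Gram-negative bacteria, or were left without it as the control. Both groups share the strain, the medium and M-CSF, and the labels give no dose, duration, age, sex or number of animals and no RANKL, the cytokine that drives osteoclast formation. Each condition was read on 1 Affymetrix Mouse Genome 430 2.0 array. There is therefore no replicate and no test: every difference is one between these 2 arrays, and their number limits the precision of each value.

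Calcineurin is a calcium- and calmodulin-activated phosphatase built from a catalytic A subunit and a regulatory B subunit. It removes phosphates from the NFAT transcription factors, which then enter the nucleus, and NFAT in turn switches on the calcineurin inhibitor gene Rcan1. In macrophage precursors exposed to RANKL, NFATc1 drives the osteoclast programme, including Acp5, which encodes the bone-resorption marker tartrate-resistant acid phosphatase, and Dcstamp, which encodes a membrane protein needed for cell fusion.

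The macrophage label was met by the markers: all 7 macrophage marker genes were bright on both arrays, from 654 to 10273 signal units on the LPS array and from 1094 to 9710 on the control array. The response to LPS was also plain, with Tnf at 6982 on the LPS array against 102 on the control array, 68.3-fold higher. A probe set was counted as measured if at least 1 of its signals reached a floor, for which the median of each array was taken. The floors were 26.7 on the LPS array and 35.1 on the control array. A signal under its floor was set to it, and the fold is then written as at least N-fold. Log2 ratios are LPS over control as deposited, and each gene is represented by its brightest probe set unless all are given. The ratios carry an array-wide shift: the median of 11722 measured genes was -0.42, which turns to 0 by construction after median centring. Markers of other cell types were in part under the floors. Of the genes with a probe set, 4 of 6 T cell markers, 3 of 5 B cell markers, 3 of 6 neutrophil markers and 2 of 5 stromal and osteoblast markers were under the floor on both arrays. Their summed signals on the LPS and control arrays were 345 and 393 for T cells, 118 and 222 for B cells, 319 and 540 for neutrophils, and 277 and 137 for stromal cells. Cd3e, Cd79a, Elane and Col1a1 were under both floors, though none was listed at 0. Others were above both, among them Zap70 with 219 on the LPS array and 325 on the control array, Mmp8 with 183 on the LPS array and 435 on the control array, and Cd79b with 35.4 on the LPS array and 110 on the control array. These marker genes were named after their values were seen. The part of such cells in the results was not tested. In a bulk sample, fewer cells of a type and less RNA per cell cannot be told apart.

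Among the 10 genes, the transcription factor genes Nfatc1 and Nfatc2 were several-fold lower on the LPS array, while the acid phosphatase gene Acp5 was higher. All 10 were measured by their brightest probe set. In all, 3 were at least 2-fold lower (Nfatc1, Nfatc2 and Nfat5), 1 was at least 2-fold higher (Acp5) and 6 lay within 2-fold. Over all measured genes, 26.2% were at least 2-fold lower and 8.22% at least 2-fold higher, so the count of lower genes is close to the background and says nothing particular about these genes. Their median log2 ratio was -0.79, beside -0.42 over all measured genes, and 7 of the 10 lay below that all-gene median and 3 above it. With the ratios centred on that median, 2 were at least 2-fold higher (Acp5 and Rcan1), against a background of 13.1%, and 2 at least 2-fold lower (Nfatc1 and Nfatc2), against 15.3%. The counts of 2 and 2 were the same after loess on brightness, against 12.7% and 14.1%. By probe set, 26 of 33 were measured, of which 24 reached both floors. Of these 26, 6 were at least 2-fold lower and 1 at least 2-fold higher, against 26.1% and 8.27% of all measured probe sets.

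**Figure D1:**
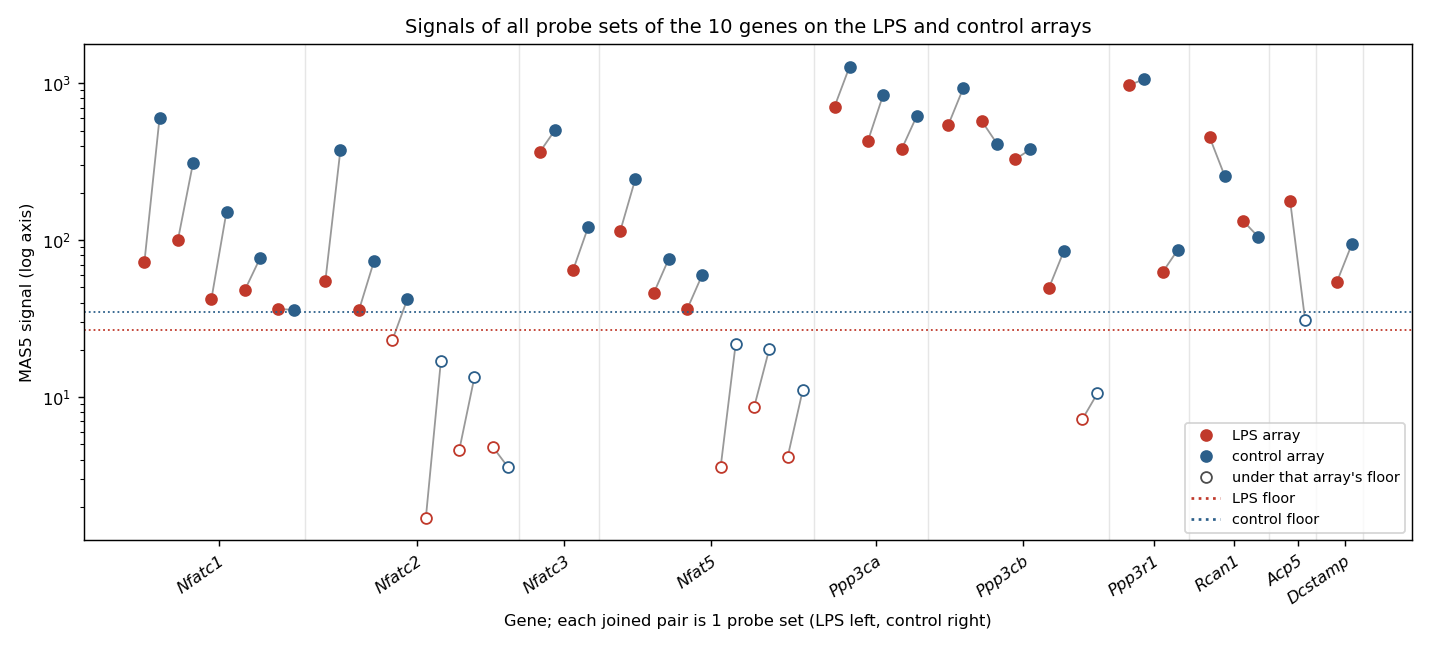
MAS5 signal on a log axis for each of the 33 probe sets of the 10 genes, with the LPS array left and the control array right in each joined pair, and open circles for signals under that array's floor (dotted lines). The steepest slopes toward lower LPS signals among filled pairs are in Nfatc1 and Nfatc2, and Acp5 is under the floor on the control array only.

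Nfatc1, the NFAT gene that osteoclast precursors depend on, was lower on the LPS array, by an amount that differed widely between its 5 probe sets. The brightest, 1428479_at, had a signal of 73.1 on the LPS array against 601 on the control array, 8.23-fold lower (log2 ratio -3.04). Only 1.79% of measured genes had a lower ratio. Probe set 1417621_at had 101 on the LPS array and 310 on the control array, 3.08-fold lower. Probe set 1425761_a_at had 42.4 on the LPS array and 152 on the control array, 3.60-fold lower. The last 2 probe sets, which share a source sequence in the annotation, did not show a difference of this size. Of these, 1447085_s_at had 48.3 on the LPS array and 76.8 on the control array, 1.59-fold lower. The signal of 1447084_at was 36.5 on the LPS array against 36.0 on the control array, just above the floor there. Thus 3 of 5 Nfatc1 probe sets passed 2-fold, all of them lower, and they did so under each of the 5 other scalings as well. The SD between the 5 log2 ratios was 1.17, whereas the median SD between probe sets of a gene was 0.28 over 4494 genes with at least 2 probe sets above both floors. The median of the 5 was -1.62. The gene stayed at least 2-fold lower under all 11 alternatives that give a ratio, but all except that median read it by the brightest probe set. In the plane of the log2 signals of both arrays, the genes lying nearest to Nfatc1 were Stxbp5, Hdac5 and Rbl2, at Euclidean distances of 0.031, 0.058 and 0.061, a likeness over 2 arrays only. Their log2 ratios were -3.06, -3.04 and -2.97.

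Nfatc2, which encodes the NFAT protein best known from activated T cells, was also lower on the LPS array. Its brightest probe set, 1439205_at, had 54.9 on the LPS array against 378 on the control array, 6.87-fold lower (log2 ratio -2.78), and 2.51% of measured genes had a lower ratio. Probe set 1425901_at had 35.7 on the LPS array and 73.3 on the control array, 2.06-fold lower. Probe set 1426032_at had 23.1 on the LPS array, under the floor, and 42.3 on the control array, at least 1.59-fold lower. All 3 measured probe sets were thus on the lower side, but with different sizes. The other 3 were under the floor on both arrays, at 1.70, 4.63 and 4.82 on the LPS array against 17.1, 13.4 and 3.59 on the control array, and give no ratio. The median over the measured probe sets was -1.04, so the size of the difference rests on the brightest one. The gene stayed at least 2-fold lower under all 11 alternatives, but all except that median read it by the brightest probe set. The 2-fold call of 1425901_at was lost under each of the 5 other scalings, from -0.99 with the hybridization controls to -0.53 under quantile normalization.

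Nfatc3, a further calcineurin-regulated NFAT gene, differed little. Its probe set 1419976_s_at had 364 on the LPS array against 501 on the control array (log2 ratio -0.46), and 1452497_a_at had 64.96 on the LPS array against 122 on the control array (-0.91). Both were on the lower side by less than 2-fold, and the ratio of the brighter probe set was -0.04 after median centring. Among measured genes, 48.1% had a lower ratio.

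Nfat5 encodes the family member that responds to osmotic stress and lacks the calcineurin-docking region of the others. Its probe set 1438999_a_at had 114 on the LPS array against 244 on the control array, 2.15-fold lower (log2 ratio -1.10). The signals of 1439328_at were 45.8 on the LPS array and 75.9 on the control array (-0.73). Those of 1439805_at were 36.3 on the LPS array and 60.1 on the control array (-0.73). The 3 measured probe sets therefore lay close together, with an SD of 0.22 between their log2 ratios. The other 3 were under both floors, with 3.58, 8.64 and 4.15 on the LPS array against 21.9, 20.2 and 11.1 on the control array. The 2-fold call was lost under 6 of the 11 alternatives, among them median centring at -0.68 and loess at -0.48. At a mean log2 signal of 7 to 9, where Nfatc1, Nfatc2, Nfatc3, Nfat5 and Rcan1 lie, the median log2 ratio of all 3922 measured genes was -0.61.

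**Figure D2:**
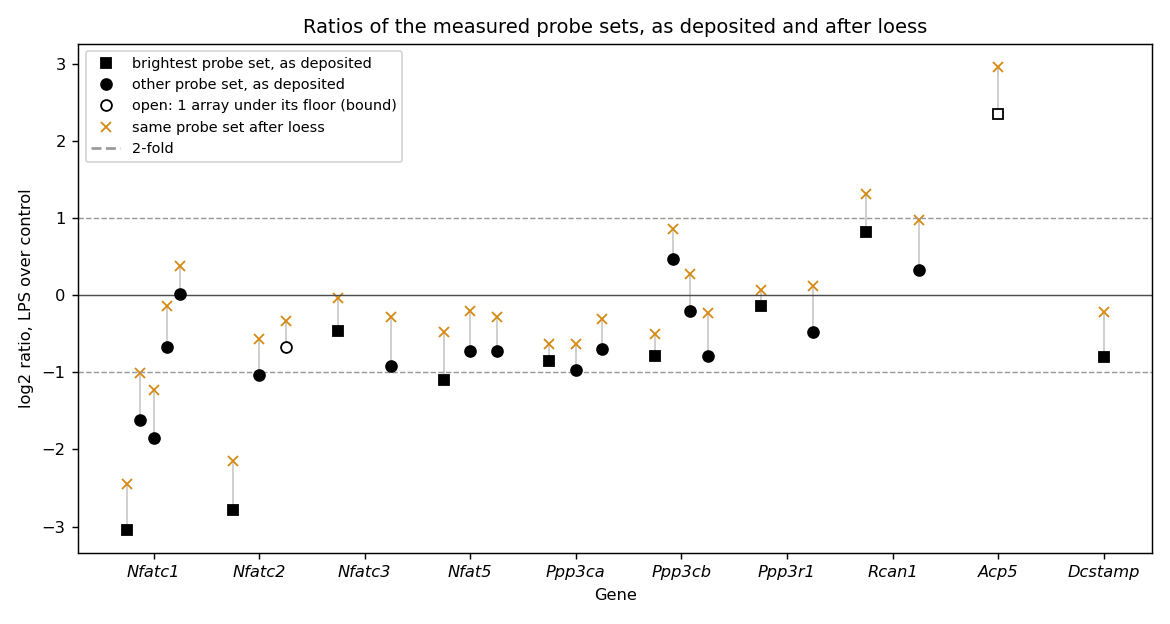
Log2 ratio of LPS over control for each measured probe set, as deposited (black) and after loess on brightness (crosses), with squares for a gene's brightest probe set, open symbols for bounds and dashed lines at 2-fold. Probe sets of Nfatc1 spread from -3.04 to 0.02, whereas those of Ppp3ca lie between -0.96 and -0.70.

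The calcineurin subunit genes were all within 2-fold. Ppp3ca, which encodes the alpha form of the catalytic subunit, had 710 on the LPS array against 1278 on the control array by 1426401_at (log2 ratio -0.85). Its 1438478_a_at had 431 on the LPS array and 841 on the control array (-0.96). The signals of 1452056_s_at were 379 on the LPS array and 615 on the control array (-0.70). The 3 probe sets lay on the lower side with an SD of 0.13, the smallest among the genes here with more than 1 measured probe set, and kept that side under all 5 other scalings.

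Ppp3cb, which encodes the beta form of the catalytic subunit, had probe sets on either side. The brightest, 1428473_at, had 545 on the LPS array against 938 on the control array (log2 ratio -0.78). The faint 1428474_at had 49.6 on the LPS array and 85.6 on the control array (-0.79). In contrast, 1433835_at had 573 on the LPS array against 413 on the control array (0.47), positive under every scaling tried. The signals of 1427468_at were 329 on the LPS array and 380 on the control array (-0.21), a ratio that turned positive under 4 of the 5 other scalings. The fifth, 1446149_at, was under both floors, at 7.24 on the LPS array and 10.6 on the control array. The probe sets of Ppp3cb thus gave no common direction.

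Ppp3r1, which encodes the regulatory B subunit, had 972 on the LPS array against 1065 on the control array by 1433591_at (log2 ratio -0.13). Its fainter 1421786_at had 62.8 on the LPS array and 87.0 on the control array (-0.47). The direction of the brighter one was not settled, since it turned positive after median centring (0.29), poly-A scaling (0.16) and loess (0.07), and that of the fainter one turned positive under quantile normalization (0.13) and loess (0.13).

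Rcan1, whose product binds and inhibits calcineurin, was the only gene besides Acp5 with all of its measured probe sets on the higher side. Its probe set 1416600_a_at had 452 on the LPS array against 256 on the control array, 1.77-fold higher (log2 ratio 0.82). The other, 1416601_a_at, had 133 on the LPS array and 105 on the control array, 1.26-fold higher (0.34). As deposited both were short of 2-fold. The ratio of the brighter probe set was higher than that of 90.3% of measured genes, and it passed 2-fold after loess (1.31), median centring (1.24), quantile normalization (1.20) and poly-A scaling (1.11). The arrays do not say which Rcan1 transcript was read.

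Acp5 was read by a single probe set, 1431609_a_at, with 179 on the LPS array against 30.8 on the control array, under the floor there. It was at least 5.10-fold higher (bound on the log2 ratio 2.35). The size depends on the floor: with the floor at the 65th percentile of each array the bound was 0.98 and the 2-fold call was lost. Dcstamp was also read by a single probe set, 1431970_at, with 54.5 on the LPS array against 95.1 on the control array, 1.75-fold lower (log2 ratio -0.80). After median centring its ratio was -0.38. These 2 genes of the osteoclast programme therefore lay on opposite sides as deposited, each by 1 probe set.

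**Figure D3:**
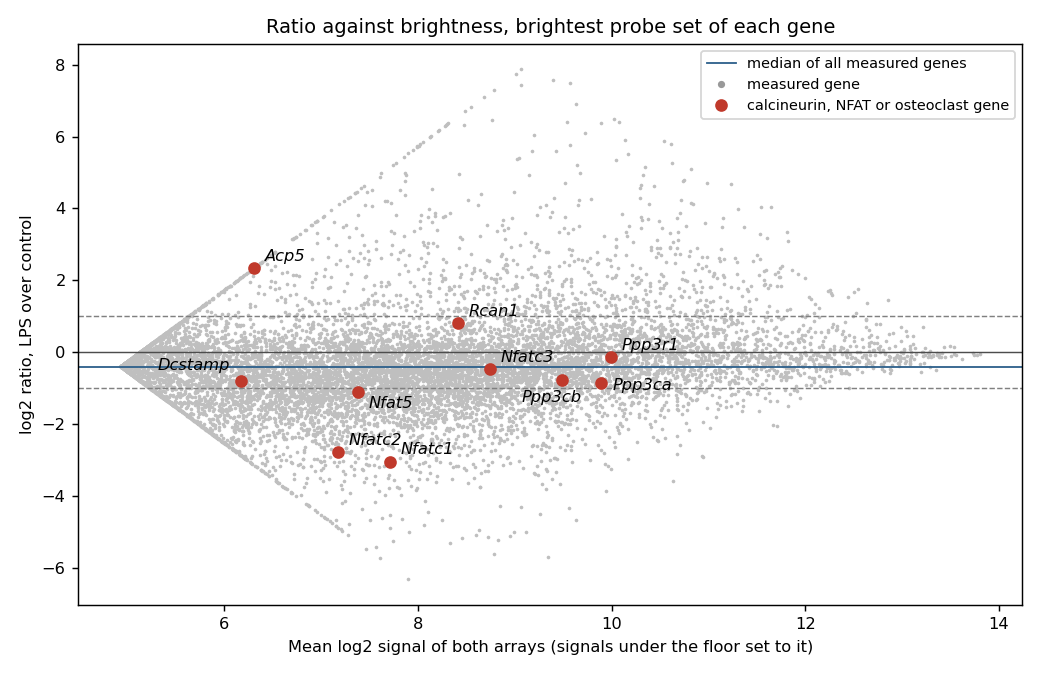
Log2 ratio of LPS over control against mean log2 signal for all 11722 measured genes (grey) and the 10 genes (red), with the median of all measured genes at -0.42 as the blue line and 2-fold as dashed lines. Nfatc1 and Nfatc2 lie near -3, Acp5 lies on the upper edge formed by genes under the control floor, and Ppp3r1 lies near 0.

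Start-site sequences are shown for the genes on the higher side, Rcan1 and Acp5, and for Nfatc2, the gene with the lowest ratio among those with a window in the table used. RefSeq windows from 250 bases before to 50 bases after a start (build GRCm38.p6) were matched for 7 of the 10 genes, 12 windows in all. Nfatc1, Ppp3ca and Dcstamp had no entry. Rcan1 is known to be transcribed from alternative first exons, of which the downstream one is induced by calcineurin and NFAT. Both of its windows are printed, with the upstream start first. For Acp5 and Nfatc2, the window with the most NFAT core matches is printed. Capitals mark the NFAT core GGAAA, or TTTCC where it lies on the other strand.
Rcan1 chr16:92466120-92466419 (- strand): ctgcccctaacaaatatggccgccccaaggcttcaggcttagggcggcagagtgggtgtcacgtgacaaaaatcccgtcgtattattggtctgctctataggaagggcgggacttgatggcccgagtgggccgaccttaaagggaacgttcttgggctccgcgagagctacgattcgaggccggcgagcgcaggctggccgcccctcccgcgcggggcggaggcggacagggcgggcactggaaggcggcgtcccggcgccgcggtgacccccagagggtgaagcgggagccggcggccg
Rcan1 chr16:92400029-92400328 (- strand): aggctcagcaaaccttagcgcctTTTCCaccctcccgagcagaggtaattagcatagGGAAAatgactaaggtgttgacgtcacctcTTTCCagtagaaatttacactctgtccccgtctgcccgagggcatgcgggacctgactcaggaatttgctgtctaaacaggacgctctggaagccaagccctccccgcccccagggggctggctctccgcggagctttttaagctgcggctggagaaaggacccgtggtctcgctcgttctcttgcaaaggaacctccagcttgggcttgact
Acp5 chr9:22130549-22130848 (- strand): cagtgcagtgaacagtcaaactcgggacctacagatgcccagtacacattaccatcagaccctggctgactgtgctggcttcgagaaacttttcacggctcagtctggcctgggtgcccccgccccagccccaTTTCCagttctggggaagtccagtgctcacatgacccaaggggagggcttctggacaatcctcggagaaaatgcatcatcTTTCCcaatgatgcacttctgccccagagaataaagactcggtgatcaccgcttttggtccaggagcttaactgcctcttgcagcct
Nfatc2 chr2:168601608-168601907 (- strand): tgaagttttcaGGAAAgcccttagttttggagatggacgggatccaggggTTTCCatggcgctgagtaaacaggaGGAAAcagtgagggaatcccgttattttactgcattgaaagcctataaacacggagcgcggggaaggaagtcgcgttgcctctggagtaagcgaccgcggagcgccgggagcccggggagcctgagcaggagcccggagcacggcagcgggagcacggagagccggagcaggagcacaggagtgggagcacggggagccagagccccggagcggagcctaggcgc

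The upstream Rcan1 window held no NFAT core, whereas the downstream window held 3, at positions -227, -193 and -163 from the start (first base of each match as written), and an AP-1 motif (TGANTCA) at -110 that overlaps none of them. The Acp5 window held 2 cores, at -117 and -37, and the other Acp5 windows 1 each. The Nfatc2 window held 3, at -239, -200 and -175. Searched on both strands, the core was found in 9 of the 12 windows and in 61.3% of all 32851 windows of the same length, and at least 3 matches occurred in 9.41% of them. The AP-1 motif was found in 1 of the 12 windows and in 7.81% of all windows. The NF-kB motif was found in 0 of the 12 and in 8.46% of all. A match is a string of letters in a window and shows no binding, and windows on the higher and the lower side both held cores.

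For the related lists below, counts are read against the shares over all measured genes, which past 2-fold were 8.22% on the higher side and 26.2% on the lower side as deposited, and 13.1% and 15.3% after median centring. No list is called particular from its count. Of 12 measured osteoclast effector and differentiation genes, 3 were at least 2-fold higher, 3 at least 2-fold lower and 6 within 2-fold, with a median log2 ratio of 0.38 beside -0.42 over all genes. After median centring 5 were higher and 1 lower. Of these 5, Src, Car2 and Itgb3 were under the floor on the control array, so that their ratios are bounds. The other measured probe set of Itgb3 had a log2 ratio of -2.00. Tnfrsf11a and Mitf, named after their values were seen, were above both floors. Tnfrsf11a had 515.5 on the LPS array and 219.8 on the control array, 2.35-fold higher, with its other measured probe set at 0.75 on the log2 scale. Mitf had 2242 on the LPS array and 1366 on the control array. Its log2 ratio was 0.71 as deposited, 1.14 after median centring and 0.83 after loess. Src, the tyrosine kinase of the osteoclast ruffled border, had 324 on the LPS array against 18.3, under the floor, on the control array, at least 9.23-fold higher. Car2, which encodes a carbonic anhydrase that supplies protons for resorption, had 147 on the LPS array against 15.04, under the floor, on the control array, at least 4.18-fold higher. Atp6v0d2, a proton pump subunit gene with a part in cell fusion, had 149 on the LPS array against 910 on the control array, 6.10-fold lower. Calcr, the calcitonin receptor gene that marks mature osteoclasts, and Mmp9 were under the floor on both arrays. For Ctsk, the collagen-degrading cathepsin gene, named after its values were seen, the signals were 46.4 on the LPS array and 108 on the control array, 2.34-fold lower as deposited, with a log2 ratio of -0.80 after median centring.

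None of the 6 measured cell fusion genes passed 2-fold as deposited (median -0.38, which turns positive after median centring). Cd47 had 5872 on the LPS array and 3216 on the control array (log2 ratio 0.87), and its 5 probe sets ranged from -0.28 to 0.87. Cd44, the hyaluronan receptor gene, had 6586 on the LPS array and 4002 on the control array (0.72), and both of these passed 2-fold after median centring and poly-A scaling but not after loess, at 0.90 for Cd47 and 0.73 for Cd44, nor under quantile normalization, at 0.66 and 0.54 in the same order. Adam8, a membrane protease gene, had 1862 on the LPS array and 3151 on the control array (-0.76). Ocstamp, which encodes a partner of DC-STAMP in fusion, was under the floor on both arrays, with 21.7 on the LPS array and 4.05 on the control array.

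Among genes of proteins that bind or regulate calcineurin and NFAT, Rcan3 had the lowest ratio. The list had 8 measured genes, of which 2 were at least 2-fold lower, close to the share over all genes, and 0 higher (median -0.60). After median centring 1 was lower and 1 higher. Rcan3, a calcineurin inhibitor gene related to Rcan1, had 39.9 on the LPS array against 315 on the control array, 7.90-fold lower, with its other probe set at -1.39 on the log2 scale. It thus lay far on the opposite side from Rcan1, whereas Rcan2 was under both floors. Homer3, which encodes a scaffold that can compete with calcineurin for NFAT, had 70.2 on the LPS array and 157 on the control array, 2.24-fold lower, a call lost after median centring (-0.74 on the log2 scale), loess (-0.52), quantile normalization (-0.56) and poly-A scaling (-0.87). Nfatc2ip had 141 on the LPS array and 277 on the control array, with a log2 ratio of -0.97. Ppp3cc, the third catalytic subunit gene, had 64.3 on the LPS array against 30.9, under the floor, on the control array, at least 1.83-fold higher. The bound on its log2 ratio, 0.87 as deposited, passed 2-fold after median centring (1.30), loess (1.33), quantile normalization (1.39) and poly-A scaling (1.17). Nfatc4 was under both floors, with 26.2 on the LPS array and 24.7 on the control array.

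Among kinases that phosphorylate NFAT and oppose calcineurin, Dyrk2 had the highest ratio. Among 7 measured kinase genes, 1 passed 2-fold on the higher side and 2 on the lower side (median -0.69), the lower count being close to the share over all genes. Median centring left 1 on the higher and 0 on the lower side. Dyrk2 had 1717 on the LPS array and 608 on the control array, 2.82-fold higher, with 4 probe sets from 0.38 to 1.72 on the log2 scale. Csnk1e had 150 on the LPS array and 395 on the control array, 2.63-fold lower. Gsk3b had 376 on the LPS array and 777 on the control array, 2.06-fold lower. Both calls were lost after median centring, at -0.97 for Csnk1e and -0.62 for Gsk3b on the log2 scale.

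Upstream of calcineurin stand genes of calcium entry and of ITAM receptor signalling. Among 16 measured genes, 2 passed 2-fold on the higher side and 5 on the lower side, near the shares over all genes, and the median of -0.43 lay at the all-gene median of -0.42. With median centring there were 4 on each side. Tec, a kinase that acts on phospholipase C gamma, had 116 on the LPS array against 1092 on the control array, 9.40-fold lower. Plcg1, one such phospholipase gene, had 22.5 on the LPS array, under the floor, against 110 on the control array, at least 4.14-fold lower, with its other measured probe set at -0.29 on the log2 scale. Orai3, a calcium channel gene, had 160 on the LPS array and 515 on the control array, 3.22-fold lower. Syk, the kinase recruited by ITAM adaptors, had 3369 on the LPS array and 1273 on the control array, 2.65-fold higher, with 4 probe sets from 0.33 to 1.40 on the log2 scale. The other gene counted as higher was Orai2, named after its values were seen. It had 336.5 on the LPS array and 136.4 on the control array, 2.47-fold higher, with its other measured probe set at -0.03.

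Of 4 measured repressors of osteoclast formation, 2 were higher and 0 lower (median 0.92). After median centring 3 were higher, and after loess 2. Irf8, an interferon regulatory factor that restrains NFATc1, had 3330 on the LPS array and 1587 on the control array, 2.10-fold higher, with a log2 ratio of 0.94 under quantile normalization. Bcl6, a transcriptional repressor gene, had 1227 on the LPS array and 549 on the control array, 2.24-fold higher. On the log2 scale, the other measured probe set was at 1.87 for Irf8 and at 0.49 for Bcl6. Id2 had 2311 on the LPS array and 1353 on the control array, with a log2 ratio of 0.77. Its other measured probe sets lay on opposite sides, at -0.37 and 1.04, so the direction of Id2 differed between probe sets. Of 5 measured genes listed as NFAT5 targets of osmotic stress, 2 were higher and 2 lower (median -0.48). The higher ones were the heat shock genes Hspa1b, with 1586 on the LPS array and 84.8 on the control array, and Hspa1a, with 398 on the LPS array and 64.9 on the control array, near-identical copies whose probes may share transcripts. The amino acid transporter gene Slc38a2 had 300.4 on the LPS array and 1388 on the control array, 4.62-fold lower, with 3 probe sets from -2.21 to -0.25 on the log2 scale. The other lower gene was Slc5a3, named after its values were seen, with 36.8 on the LPS array and 103 on the control array, 2.81-fold lower. Slc6a6, also named afterwards, was within 2-fold (log2 ratio -0.48), with 4 probe sets from -1.46 to -0.48. Many factors besides NFAT5 control these genes.

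**Figure D4:**
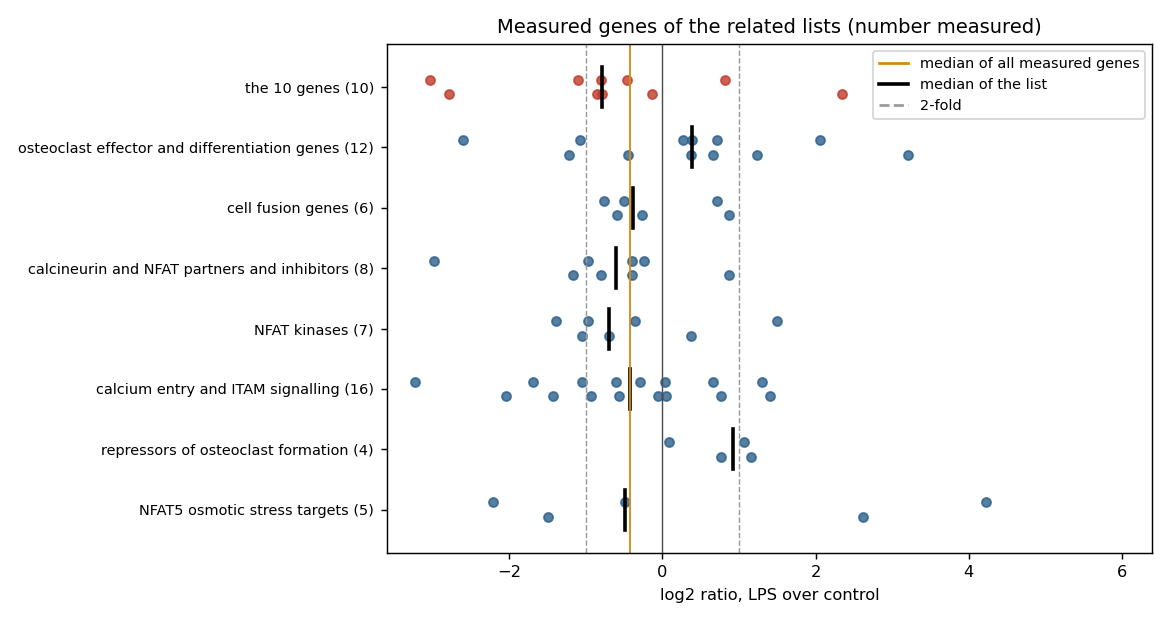
Log2 ratio of LPS over control for the measured genes of the 10 genes (top row, red) and of 7 related lists (blue), with the number measured in brackets, a black bar at each median and an orange line at the median of all measured genes. As deposited, the medians run from -0.79 for the 10 genes to 0.92 for the repressors of osteoclast formation, and the lower end is not kept after loess, where the NFAT5 targets have -0.44 and the 10 genes -0.35, or under quantile normalization, where the NFAT5 targets have -0.68, the cell fusion genes -0.56 and the 10 genes -0.38.

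**Figure D5:**
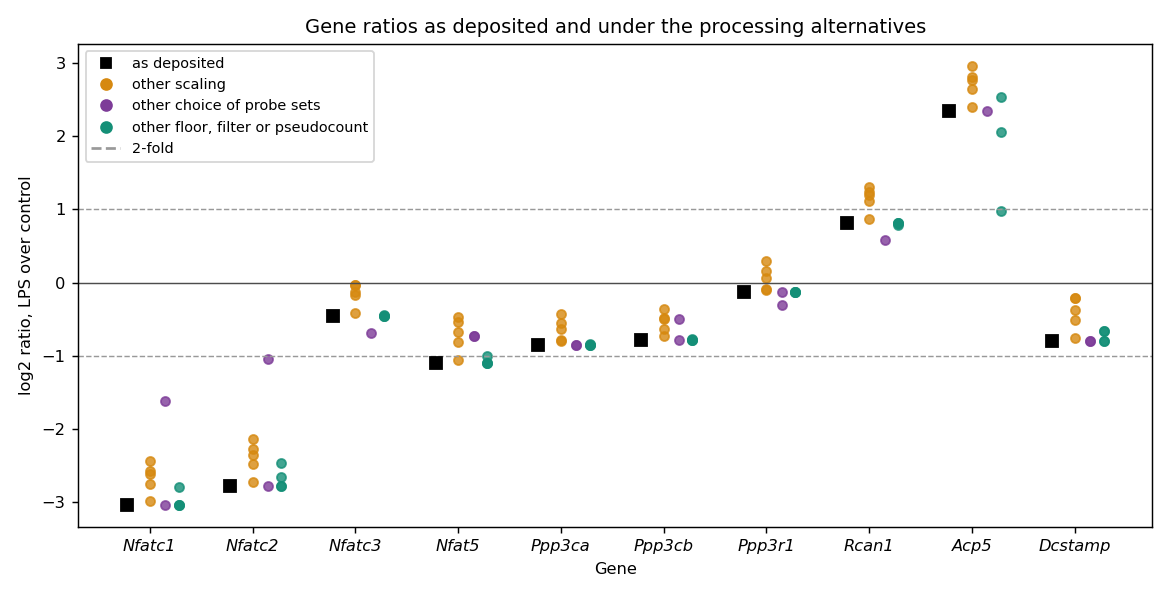
Log2 ratio of LPS over control of each gene as deposited (black squares) and under other scalings, probe set choices, and floors, filters or a pseudocount (coloured circles), with dashed lines at 2-fold. Nfatc1 and Nfatc2 stay at least 2-fold lower under each alternative, most of which read a gene by its brightest probe set. Rcan1 and Nfat5 cross the 2-fold lines and Ppp3r1 crosses 0.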

How the data were processed

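Each of 2 samples, 1 LPS and 1 control, was read on 1 array and grouped by its title. The authors deposited MAS5 intensity values on a linear scale, as the submitters' processing notes name that tool. Which MAS5 version, scaling target and detection calls applied is not given in the sources used here. MAS5 summarizes a probe set against its mismatch probes, so faint values are noisy. A plain _at name marks a probe set specific to its gene, _a_at transcripts of 1 gene, and _s_at or _x_at probes that may be shared.

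Of 45101 probe sets, 34945 had exactly 1 gene in the platform annotation. Gene symbols were checked against RefSeq through 34741 identifiers, and 0 changed. The floor was the 50th percentile of each array's 45037 non-control probe sets. A gene was represented by its probe set of highest mean log2 signal, and called at 2-fold. A gene under its control floor whose LPS signal lay between both floors, such as Homer2, gets a small negative ratio by construction. No p-value was computed. The named genes were all members with every probe set, and from each list up to 3 genes with the largest ratios and the 1 furthest against the list's median. Members and lists were chosen with earlier results of these data known. Alternatives were a lower floor (35th percentile), a higher one (65th), a pseudocount of 16, 5 scalings (quantile, median centring, loess with span 0.4, hybridization and poly-A controls), 2 choices of probe sets, a filter on both arrays, and 1.5-fold and 3-fold thresholds. The code was run on simulated data with known folds, without an array-wide shift and for genes above both floors. That run does not gauge how reliable the calls made here are. Python 3.11.15, numpy 2.4.6, pandas 2.3.3 and statsmodels 0.14.6 were used.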

Additional observations from a re-analysis of the deposited data

How the results depend on the processing

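No paired analysis was possible because each condition has 1 array, and no array could be left out for the same reason. Without replicates, a ratio was taken to have moved if it shifted by more than 0.28, the median SD between probe sets of a gene. Of the 10 genes, the number at least 2-fold higher was 1 as deposited, 2 under loess, median centring, quantile normalization and poly-A scaling, and 0 with the higher floor (65th percentile), with plain probe sets alone and with the filter on both arrays. The plain probe sets and that filter leave out the only Acp5 probe set by construction. The probe sets at least 2-fold higher gave the same counts of 1, 2 and 0 under those settings. At 1.5-fold, 2 genes and 2 probe sets were higher, and 6 genes and 17 probe sets lower, against 3 and 6 at 2-fold. The median of the 10 genes moved to -0.38 under quantile normalization, -0.37 after median centring, -0.35 after loess and -0.50 with the poly-A controls. Over all genes, those at least 2-fold higher were 964 as deposited, 1537 after median centring, 1483 after loess, 1524 at 1.5-fold and 612 at 3-fold. Those lower were 3076 as deposited, 1830 under quantile normalization, 1790 after median centring, 1654 after loess, 4926 at 1.5-fold and 1428 at 3-fold. Of the 10 genes, none of the 4 past 2-fold as deposited changed direction under the alternatives that gave it a value. That says little, because these genes were picked by the size of their ratio and most alternatives read the same probe set. Ratios of Nfatc1 ranged from -3.04 to -1.62, of Nfatc2 from -2.78 to -1.04, of Nfat5 from -1.10 to -0.48, of Rcan1 from 0.58 to 1.31 and of Acp5 from 0.98 to 2.96. Signals near the floor limit Acp5, Dcstamp and the fainter Nfatc1, Nfatc2 and Nfat5 probe sets.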

Other observations

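A further probe set, 1450368_a_at, is assigned to both Wdr92 and Ppp3r1 and was left out of the values above for that reason. Its signal was 53.8 on the LPS array against 113 on the control array, 2.10-fold lower (log2 ratio -1.07), whereas the probe sets assigned to Ppp3r1 alone were at -0.13 and -0.47.

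Among the genes of other cell types, named after their values were seen, Pdgfrb, a receptor gene of stromal cells, had 170 on the LPS array against 3.97, under the floor, on the control array, higher by at least 4.86-fold. Without it the summed stromal signal would be lower, not higher, on the LPS array. Among the osteoclast genes, Itgb3, which encodes the beta 3 integrin subunit, gave opposite signs. Its brightest probe set had 55.4 on the LPS array against 10.5, under the floor, on the control array, at least 1.58-fold higher. The other measured one, under the floor on the LPS array, gave a bound on the log2 ratio of -2.00.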
